A study of Rattus norvegicus with 12 samples.

Results

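The mitochondrial ribosomal proteins were taken as the probe sets whose only gene symbol in the platform annotation was Mrpl or Mrps followed by digits and at most 1 letter. The rule found 97 of the 31042 probe sets that are not manufacturer's controls, and these stood for 73 of the 14217 genes named on the array. Of these genes, 48 encode proteins of the large subunit, counting Mrps18a and Mrps30, whose proteins sit there despite their symbols, and 25 encode proteins of the small subunit. Another 3 probe sets, spelled mrpl9, mrpl11 and mrpl24 in lower case, fell outside the rule and were counted apart. Mrps36 was not analysed here.

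The mitochondrial ribosome is built in the mitochondrial matrix from RNAs of the mitochondrial genome and from proteins that are all encoded in the nucleus, made in the cytosol and imported. It makes the few respiratory chain subunits that the mitochondrial genome encodes, and it is attached to the inner membrane into which they are inserted. The heart depends on oxidative phosphorylation, and inherited defects in several of these proteins, among them those of Mrpl3, Mrpl44 and Mrps22, are known causes of cardiomyopathy.

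RNA came from the left atrial appendage and the left ventricular free wall of male Sprague Dawley rats weighing 225 to 275 g, whose age was not given. The tissue was taken 28 days after an aorto-caval shunt, which lets aortic blood flow straight back to the right heart and so overloads the heart with volume, or after a sham operation. Each of the 4 groups (left atria sham, left atria shunt, left ventricles sham, left ventricles shunt) had 3 one-colour Affymetrix arrays, and each array held 1 pool of 2 tissues, so an array is the mean of 2 tissues and no single animal was read. All animals were operated on, and no unoperated tissue was used. The samples were described as biological replicates, and all values below are RMA values on a log2 scale, where a step of 1 is a factor of 2.

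The tissues matched their labels by their defining markers, with 8 of 8 atrial myocyte markers higher and 6 of 6 ventricular myocyte markers lower in sham atrium than in sham ventricle. Array medians lay between 4.54 and 4.59, and arrays of a group correlated at 0.99 to 0.997. Array 3 of shunt atrium lay farthest from its group mean, at a root mean square distance of 0.20 over all probe sets tested, against 0.0913 to 0.163 on the other arrays. Of the members, 93 probe sets passed the filter on low values, a mean over the 12 arrays of at least 4.01, and all 73 genes kept at least 1 probe set. The 4 that did not pass had means of 2.79 to 3.29 (Mrps18c, Mrps26, Mrps22 and Mrps24), and each of these genes was still read by another probe set.

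Promoter windows of 4 members are given here because these genes mark the range of the results that follow: Mrpl47 had the largest chamber difference, Mrps18b was among the next in the small subunit, Mrpl52 went the opposite way, and Mrpl32 did not differ between chambers in sham. Each runs from 250 bases before to 50 after the gene's start, from RefSeq on build GRCr8 of the rat, read 5′ to 3′ along the gene, with matches to the 3 motifs described further on in capitals. Mrpl47 lies at chr2:117447312-117447611 on the minus strand, Mrps18b at chr20:2842756-2843055, Mrpl52 at chr15:31852686-31852985 and Mrpl32 at chr17:55260401-55260700, all 3 on the plus strand.
Mrpl47: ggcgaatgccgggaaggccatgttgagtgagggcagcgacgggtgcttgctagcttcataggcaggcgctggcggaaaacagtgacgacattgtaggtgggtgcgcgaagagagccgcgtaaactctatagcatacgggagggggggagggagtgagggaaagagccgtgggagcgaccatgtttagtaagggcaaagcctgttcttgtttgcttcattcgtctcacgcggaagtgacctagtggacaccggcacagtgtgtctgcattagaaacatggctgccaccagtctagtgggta
Mrps18b: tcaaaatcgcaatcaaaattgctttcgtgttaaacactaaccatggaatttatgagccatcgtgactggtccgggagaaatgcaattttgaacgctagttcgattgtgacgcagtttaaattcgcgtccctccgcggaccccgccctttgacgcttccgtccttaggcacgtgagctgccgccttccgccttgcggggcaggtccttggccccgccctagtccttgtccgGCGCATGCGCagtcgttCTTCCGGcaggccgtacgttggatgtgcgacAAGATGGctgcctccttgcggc
Mrpl52: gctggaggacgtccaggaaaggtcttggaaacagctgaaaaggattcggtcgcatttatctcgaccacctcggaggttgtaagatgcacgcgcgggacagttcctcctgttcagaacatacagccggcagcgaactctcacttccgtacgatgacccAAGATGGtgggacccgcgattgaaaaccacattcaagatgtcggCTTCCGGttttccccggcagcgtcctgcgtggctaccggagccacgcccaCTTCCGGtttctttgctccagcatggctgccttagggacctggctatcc
Mrpl32: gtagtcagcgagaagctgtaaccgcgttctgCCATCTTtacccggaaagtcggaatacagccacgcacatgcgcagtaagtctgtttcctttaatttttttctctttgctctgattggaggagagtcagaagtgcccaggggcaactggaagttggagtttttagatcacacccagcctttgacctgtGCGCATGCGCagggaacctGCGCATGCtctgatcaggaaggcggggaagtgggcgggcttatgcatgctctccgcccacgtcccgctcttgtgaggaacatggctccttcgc

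The first question was how the mitoribosomal proteins differ between atrium and ventricle in hearts without volume load. Most of them were lower in atrium. In sham hearts 64 of the 93 probe sets were lower in atrium and 1 was higher (limma, adjusted p under 0.05 over the 18625 probe sets tested), beside 22.0% of all probe sets called lower and 25.2% called higher. The median difference, atrium minus ventricle, was -0.33 over the members, a factor of 1.26, and 0.00 over all probe sets tested. Of the 93 values, 84 were below 0, against 49.6% of all probe sets. The 3 arrays of each chamber did not overlap for 71 probe sets that were lower and 4 that were higher in atrium, beside 29.0% and 32.2% of all probe sets. Counted by gene, with the probe set of highest mean for each, 53 of 73 genes were lower and 1 higher.

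**Figure D1:**
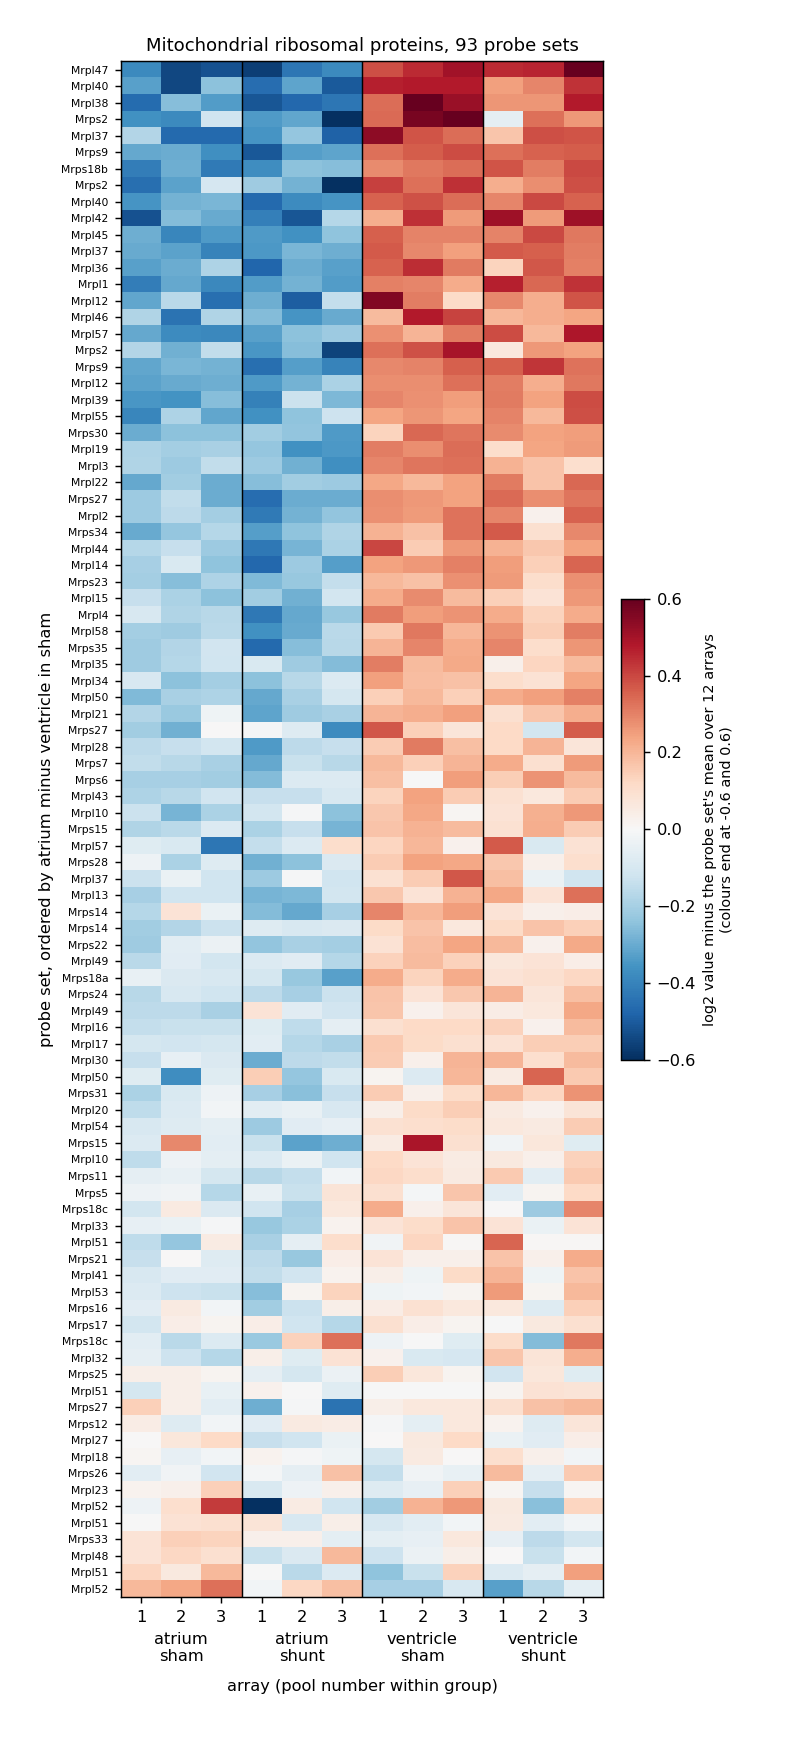
Log2 value of each of the 93 member probe sets (rows, ordered by the sham chamber difference) on each of the 12 arrays (columns, pools 1 to 3 of each group), minus the probe set's own mean over the 12 arrays. Most rows are blue (below their mean) on the 6 atrial arrays and red (above it) on the 6 ventricular arrays, and shunt columns look like the sham columns of the same chamber; rows near the bottom, down to Mrpl52, do not follow this.

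The shift was seen on every array. The median member deviated from its 12-array mean by -0.17 to -0.12 on the sham atrial arrays and by -0.23 to -0.15 on the shunt atrial arrays. On the ventricular arrays it deviated by 0.16 to 0.20 in sham and by 0.10 to 0.23 after shunt. Atrial and ventricular arrays did not overlap in this measure, while sham and shunt arrays of the ventricle did and those of the atrium overlapped between -0.17 and -0.15.

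Among large-subunit proteins shared with bacteria, Mrpl47, which sits near the exit of the nascent chain tunnel, differed most. It read 7.64, 7.48 and 7.50 on the sham atrial arrays and 8.41, 8.47 and 8.53 on the sham ventricular arrays. The groups were far from overlapping, and the difference was -0.93 ± 0.07 (SE, n = 3 per group; limma adjusted p = 1.32e-06), a factor of 1.90. Mrpl1, of the mobile stalk that releases tRNA, read 7.90 to 8.01 in sham atrium and 8.54 to 8.62 in sham ventricle, a difference of -0.64 ± 0.06. Mrpl12, of the stalk that recruits translation factors and also a binding partner of the mitochondrial RNA polymerase, read 9.67, 9.69 and 9.70 against 10.27, 10.27 and 10.32. Its 3 atrial values were nearly identical, and it was lower in atrium by -0.60 ± 0.06 (limma adjusted p = 8.63e-06). Mrpl3, a core protein near the peptidyl transferase centre, read 9.76, 9.72 and 9.79 against 10.23, 10.26 and 10.27, a difference of -0.50 ± 0.06 (limma adjusted p = 3.82e-05).

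Large-subunit proteins whose systematic names class them as mitochondria-specific moved in the same direction. Mrpl38 read 6.64, 6.85 and 6.77 on the sham atrial arrays and 7.44, 7.71 and 7.62 on the sham ventricular arrays, a difference of -0.84 ± 0.09 (limma adjusted p = 1.39e-05). Mrpl40 was read by 2 probe sets that gave -0.85 ± 0.09 and -0.67 ± 0.06, and Mrpl42 gave -0.67 ± 0.11. For Mrpl37 the 3 probe sets gave -0.79, -0.65 and -0.30, all called, so its size depends on which is read. Mrpl45, which anchors the ribosome to the inner membrane, differed by -0.66 ± 0.06. Mrpl44, a large-subunit protein with an RNase III fold, read 7.41, 7.44 and 7.36 against 7.98, 7.73 and 7.84, a difference of -0.45 ± 0.08 (limma adjusted p = 0.000716). Mrpl58, a peptidyl-tRNA hydrolase built into the large subunit, was lower by -0.41 ± 0.07.

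In the small subunit Mrps9 read 8.01, 8.02 and 7.95 in sham atrium and 8.65, 8.68 and 8.71 in sham ventricle. That difference was -0.69 ± 0.06 (limma adjusted p = 4.75e-06), and a second probe set gave -0.60. Mrps18b read 8.67, 8.79 and 8.66 against 9.37, 9.40 and 9.42, a difference of -0.69 ± 0.06 (limma adjusted p = 4.19e-06). All 3 probe sets of Mrps2 were called, at -0.81 ± 0.13, -0.68 ± 0.12 and -0.61 ± 0.09. Mrps22 differed less, with 7.50, 7.65 and 7.68 against 7.80, 7.90 and 7.95, and was lower by -0.27 ± 0.08 (limma adjusted p = 0.0104). Its 2 groups lay close to each other without overlapping.

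**Figure D2:**
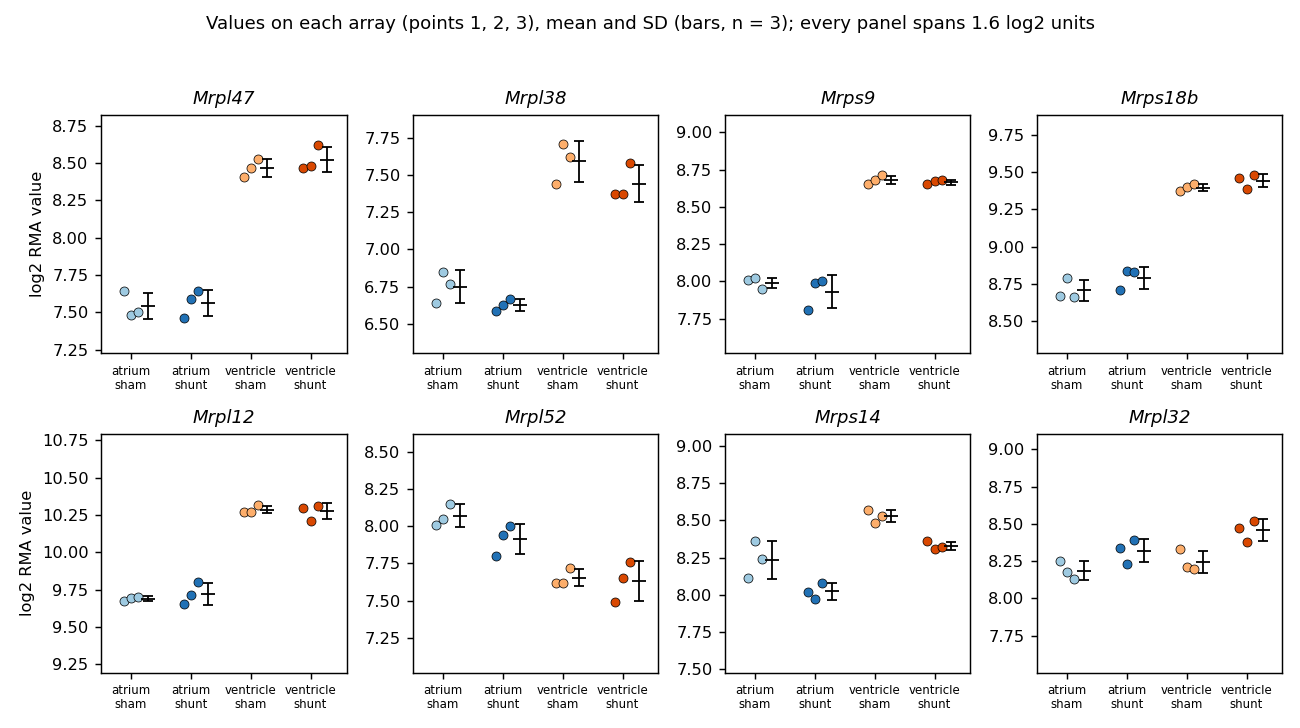
Log2 RMA values of 8 members on each array (points), with the mean and SD of each group (bars, n = 3); each panel has its own axis of 1.6 log2 units, and levels are not comparable between panels. Mrpl47, Mrpl38, Mrps9, Mrps18b and Mrpl12 lie lower on all 6 atrial arrays, Mrpl52 lies higher there, the plotted probe set of Mrps14, 1 of 2, lies lower after shunt in both chambers, and Mrpl32 shows no chamber gap in sham.

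By subunit, 44 of 60 large-subunit probe sets were lower and 1 higher (median -0.36), and 20 of 33 small-subunit probe sets were lower and none higher (median -0.29). Origin was read from the systematic protein names, which put Mrps18a, Mrps18b and Mrpl58 in the mitochondria-specific class and Mrps18c in the bacterial one. By these names, 36 of 50 probe sets of proteins with a bacterial homologue were lower and none higher (median -0.33). Of the 43 with mitochondria-specific names 28 were lower and 1 higher (median -0.32). Counted by gene, 38 of 48 large-subunit genes were lower and 1 higher (median -0.395), and 15 of 25 small-subunit genes were lower (median -0.274). With a bacterial homologue 30 of 42 genes were lower (median -0.318), and with mitochondria-specific names 23 of 31 were lower and 1 higher (median -0.412). The differences between the classes were not tested. Of 15 genes with more than 1 tested probe set, 14 had all differences on the same side of 0 and 10 had the same call throughout, with 8 lower by every probe set. The exception in sign was Mrpl51, whose 4 probe sets ran from -0.15 to 0.20 with none called. Mrps27 was called by 2 of its 3 probe sets, at -0.48 and -0.36, and its other one gave -0.02 ± 0.10. All 3 probe sets with lower-case symbols were lower in sham atrium, mrpl24 by -0.91, mrpl11 by -0.41 and mrpl9 by -0.28.

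A minority of members showed no such difference. Mrpl27 gave 0.00 ± 0.06, Mrpl18 0.00 ± 0.06, Mrps26 0.00 ± 0.08 and Mrps12 -0.02 ± 0.07, none of which passed the test, and their arrays overlapped between chambers. Mrpl27 read 9.76, 9.83 and 9.88 in sham atrium and 9.76, 9.82 and 9.88 in sham ventricle. Mrpl48 (0.15 ± 0.09) and Mrps33 (0.13 ± 0.06) had positive values that did not pass. The 1 member called higher was Mrpl52, a mitochondria-specific large-subunit protein, named here after its values were seen. It read 8.01, 8.05 and 8.15 on the sham atrial arrays and 7.62, 7.62 and 7.72 on the sham ventricular arrays, a difference of 0.42 ± 0.08 (limma adjusted p = 0.00147). The second probe set of Mrpl52 gave 0.07 ± 0.19 and its arrays overlapped.

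The difference was present after shunt in separate arrays. After shunt 61 of 93 probe sets were lower in atrium and 1 was higher (limma, adjusted p under 0.05), beside 19.4% and 22.4% of all probe sets, and the median was -0.34, a factor of 1.27, against 0.00 over all. Arrays did not overlap for 63 lower probe sets and 1 higher one, beside 23.9% and 25.4% of all. Both comparisons called 59 probe sets of 52 genes lower, which is 63.4% of the members beside 15.5% of all probe sets, and 26 were called in neither. Arrays did not overlap in either comparison for 61 lower members, or 65.6%, beside 18.6% of all. Across the 93 members the sham and shunt chamber differences, which share no arrays, correlated at r = 0.93, as a description over probe sets that share arrays within each comparison; over all probe sets tested r was 0.947.

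**Figure D3:**
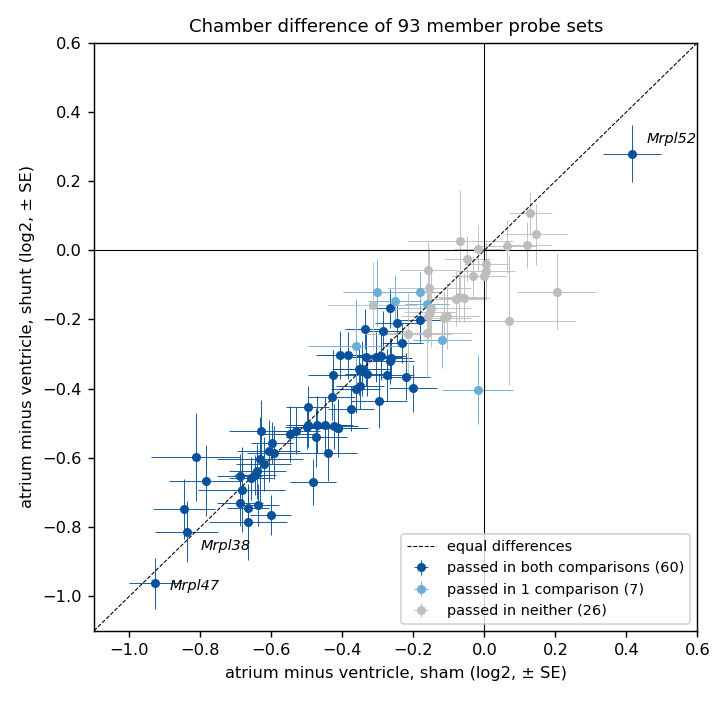
Atrium minus ventricle (log2, ± SE) of each member probe set in sham (horizontal) and after shunt (vertical), coloured by whether it passed the test (limma adjusted p under 0.05) in both, 1 or neither comparison; the dashed line marks equal differences. Most points lie below 0 on both axes and near the line, with Mrpl47 lowest and Mrpl52 alone among those passed above 0.

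Mrpl47 again had the largest difference after shunt. It read 7.46, 7.59 and 7.64 in shunt atrium and 8.47, 8.48 and 8.62 in shunt ventricle, a difference of -0.96 ± 0.07 (limma adjusted p = 1.06e-06). Mrpl38 differed by -0.81 ± 0.09, Mrpl42 by -0.79 ± 0.11, Mrps9 by -0.76 ± 0.06 and -0.73 ± 0.06 with its 2 probe sets, Mrpl40 by -0.75 ± 0.09 and -0.74 ± 0.06 and Mrpl1 by -0.74 ± 0.06. The probe set of highest mean for Mrps27 read 6.63, 6.79 and 6.79 against 7.43, 7.37 and 7.41, a difference of -0.67 ± 0.07. All 4 members known from cardiomyopathy or for a second role were called lower again, Mrpl12 at -0.56, Mrpl44 at -0.50, Mrpl3 at -0.45 and Mrps22 at -0.36. Mrpl52 was higher by 0.28 ± 0.08 (limma adjusted p = 0.017), and its second probe set gave -0.20 ± 0.19. That call ended without shunt atrial array 2 (adjusted p = 0.0519) or 3 (adjusted p = 0.0542) or shunt ventricular array 1 (limma adjusted p = 0.0733), with only the groups compared in the fit (adjusted p = 0.0616) and with the beta-actin covariate described further on (limma adjusted p = 0.084).

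Several other measures differed between the chambers with the members. These are bulk tissues, in which fewer cells of a type and less RNA per cell cannot be told apart. The mean level of 11 cardiomyocyte markers was 12.21 to 12.27 in sham atrium and 12.62 to 12.65 in sham ventricle. Without the beta myosin heavy chain gene Myh7, a mean added after its values were seen, the other 10 read 12.74 to 12.76 and 12.83 to 12.85. Among all 11, with Myh7 counted, 4 were lower and 2 higher in atrium, with a median of -0.09. Myh7 gave -3.58, and the troponin gene Tnnt2 gave -0.09 ± 0.05 and was not called. The mean of 8 fibroblast markers was 9.81 to 9.83 against 9.13 to 9.23, and 6 of 8 were higher in atrium, Pdgfra by 0.85. Of 5 mesothelial markers 4 were higher and 1 lower, and their mean was 6.747 to 6.999 against 4.136 to 4.181. Of the other lists, 3 endothelial markers were lower and 1 higher of 6, 2 myeloid markers lower and 1 higher of 7, 2 smooth muscle markers lower of 4, 2 nerve markers higher of 4 and 1 adipocyte marker lower and 1 higher of 2. After shunt the cardiomyocyte means were 12.32 to 12.36 and 12.69 to 12.72, and without Myh7 12.67 to 12.77 and 12.81 to 12.83. The part of cell makeup in the chamber difference was not tested.

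Of the RNA quality controls, beta-actin separated the chambers in sham and overlapped after shunt. The difference between the 3′ and 5′ control probe sets of beta-actin, which grows as RNA is broken or shortened, was 1.19 to 1.26 on sham atrial arrays and 0.956 to 1.01 on sham ventricular arrays, and 1.15 to 1.34 against 1.02 to 1.17 after shunt. Within ventricle all shunt arrays lay above all sham arrays in this measure, the nearest at 1.019 and 1.014, while sham and shunt atrial arrays overlapped. The same difference for hexokinase overlapped between chambers, at 1.01 to 1.10 and 0.842 to 1.02 in sham and 0.799 to 1.44 and 0.824 to 1.23 after shunt. That for GAPDH also overlapped, at 0.342 to 0.371 and 0.345 to 0.38 in sham and 0.296 to 0.427 and 0.355 to 0.392 after shunt. With the beta-actin difference as a covariate, an alternative chosen after seeing the data, 44 members were lower in sham atrium and none higher beside 10.3% of all probe sets called lower, and the member median was -0.37. After shunt the same fit called 56 lower and none higher beside 14.9% of all probe sets called lower, with a median of -0.38. For the ventricular shunt effect it called 0 members, beside 7 of 18625 probe sets, and the member median was -0.03. In that fit Mrps2 by 2 of its probe sets (-0.51, adjusted p = 0.0843, and -0.29, adjusted p = 0.236), Mrps22 (-0.34, adjusted p = 0.0899) and Mrpl52 (0.41, limma adjusted p = 0.0653) were no longer called in sham.

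Genes that act with the mitoribosome were read from lists. Proteins of the mitoribosome under other symbols had 2 of 5 members lower in sham atrium, Ptcd3 by -0.71 ± 0.08 and the small-subunit GTP-binding protein Dap3 by -0.20 ± 0.07, while Chchd1, Gadd45gip1 and Aurkaip1 did not pass (0.00, 0.03 and -0.15). Of 16 translation factors and mRNA handling proteins, 9 were lower and 1 higher (median -0.33). They included Lrpprc, which stabilises mitochondrial mRNAs, at -1.09 ± 0.06, and the elongation factors Gfm1 at -0.96 ± 0.07 and Tufm at -0.69 ± 0.07; Mtrfr, a ribosome rescue factor, was the higher one at 0.39 ± 0.08. Of 18 genes for mitochondrial tRNA charging, 11 were lower and none higher (median -0.37), with Yars2 at -0.97 ± 0.10 and Gatb at -0.89 ± 0.08. Of 25 assembly and rRNA maturation factors, 16 were lower and 1, Mrm2, was higher (median -0.32), with Mettl17 at -0.65 ± 0.09 and the GTPase Mtg1 at -0.49 ± 0.06.

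Lists further from the ribosome gave similar counts. Of 15 genes for mitochondrial DNA maintenance and transcription, 10 were lower and 1 higher (median -0.41), among them the mitochondrial RNA polymerase Polrmt at -0.94 ± 0.07 and its elongation factor Tefm at -0.83 ± 0.06. Of 26 import and inner membrane genes 20 were lower and none higher (median -0.35), and of 72 nuclear-encoded respiratory chain subunits 53 were lower and 1 higher (median -0.29). In that list Cox7a1, the muscle form of a cytochrome oxidase subunit, stood out at -2.52 ± 0.16. Regulators of mitochondrial genes were mixed, with 5 lower and 1 higher of 15 (median 0.01). The coactivators Ppargc1b, Perm1 and Ppargc1a were lower by -1.05 ± 0.14, -0.72 ± 0.08 and -0.61 ± 0.08 and the receptor Esrra by -0.69 ± 0.08, while Nrf1, a regulator of nuclear genes for mitochondrial proteins, was higher by 0.25 ± 0.09 (limma adjusted p = 0.0392). Whether the members differ from these lists was not tested.

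After shunt the chamber comparison gave counts like those in sham for these lists. Translation factors had 11 lower and 1 higher (median -0.39), tRNA charging genes 11 lower (-0.35), assembly factors 14 lower and 1 higher (-0.27), DNA and transcription genes 8 lower and 1 higher (-0.37), import genes 17 lower (-0.32), respiratory chain subunits 54 lower and 1 higher (-0.27) and regulators 6 lower (-0.01). The proteins under other symbols had 2 lower, Ptcd3 (-0.64) and Aurkaip1 (-0.25). Perm1 differed by -1.18 ± 0.08 after shunt. No regulator was called higher after shunt, so the call of Nrf1 was not repeated, and the highest value among the regulators was 0.12.

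**Figure D4:**
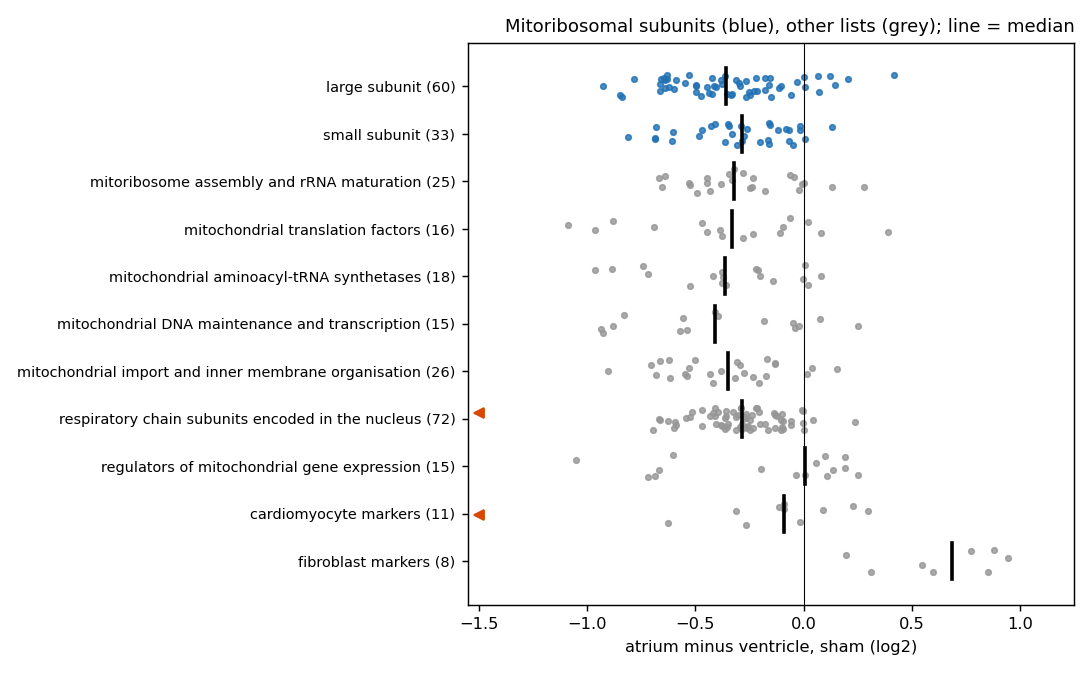
Atrium minus ventricle in sham (log2) of each member probe set by subunit (blue) and of each tested gene of other lists (grey, 1 probe set per gene), with the median as a black line and the number of points in parentheses; orange triangles mark the 2 values below -1.5, drawn at the edge. Medians of both subunits and of 6 mitochondrial lists lie between -0.41 and -0.29, that of the regulators lies near 0, and fibroblast markers lie above 0.

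The second question was whether the volume load changed the mitoribosomal proteins. No member passed the test in either chamber. In atrium 0 of 93 probe sets were called (limma, adjusted p under 0.05), beside 1.30% of all probe sets, and in ventricle 0 of 93, beside 0.107%. At an unadjusted p under 0.05 there were 6 members in atrium and 6 in ventricle, beside 15.2% and 14.7% of all probe sets. The median shunt minus sham difference was -0.03 in atrium and -0.01 in ventricle, against -0.01 and -0.01 over all probe sets. With 1 array left out the atrial median ran from -0.05 to -0.02 and the ventricular one from -0.03 to 0.03, turning above 0 without shunt ventricular array 2. In atrium 13 members were lower and 2 higher with no overlap between arrays (12.4% and 8.33% of all), and in ventricle 9 lower and 7 higher (10.7% and 10.1%).

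The intervals show what size of change these arrays could miss. The 95% interval of the shunt effect lay within 0.5 log2 units of 0, a factor of 1.41, for 89 of 93 members in atrium and 91 of 93 in ventricle. It lay within 0.25 units, a factor of 1.19, for 52 and 61 members. The atrial minus ventricular difference in shunt effect was called for 0 of 93 members, as for 0 of the 18625 probe sets tested, of which 6.60% had an unadjusted p under 0.05; 1 member had. Across members the atrial and ventricular shunt effects, which share no arrays, correlated at r = 0.50 and had the same sign for 66 of 93, as a description. Over all probe sets r was 0.529 and 64.7% had the same sign. The labels do not say whether replicate numbers pair atrial with ventricular arrays, so these effects may not be independent.

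**Figure D5:**
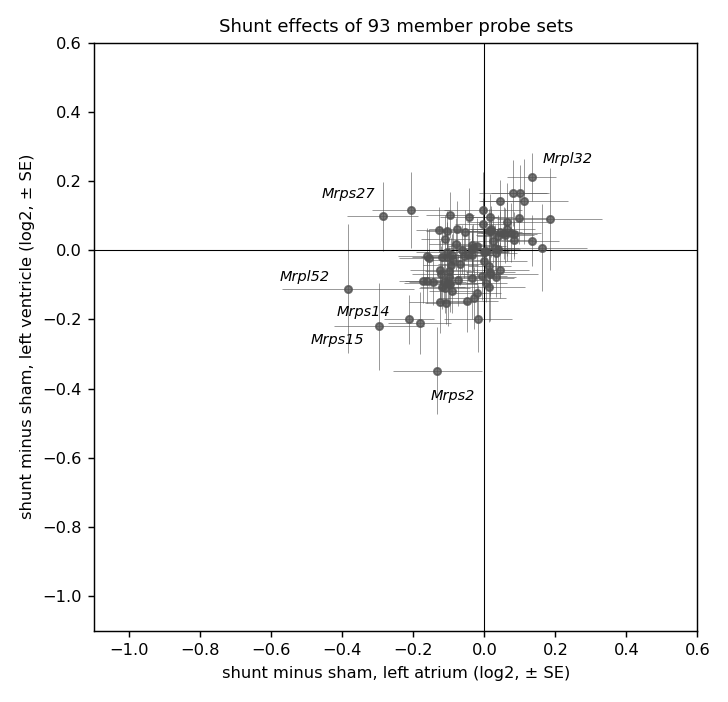
Shunt minus sham (log2, ± SE) of each of the 93 member probe sets in left atrium (horizontal) and left ventricle (vertical), on the same axis span as the plot of chamber differences. The points lie around 0, within -0.384 to 0.184 in atrium and -0.349 to 0.211 in ventricle, and none passed the test in either chamber.

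The members with the smallest p in each chamber had small differences. In atrium these were Mrps14 by 1 of its 2 probe sets at -0.21 ± 0.07, Mrps27 by 1 of its 3 probe sets at -0.29 ± 0.10, Mrpl4 at -0.17 ± 0.07, Mrpl27 at -0.16 ± 0.06 and Mrps15 by 1 of its 2 probe sets at -0.30 ± 0.13 (limma adjusted p = 0.176 to 0.293). In ventricle these were Mrpl32 at 0.21 ± 0.07, the same probe set of Mrps14 at -0.20 ± 0.07, Mrps2 by 2 probe sets at -0.35 ± 0.13 and -0.21 ± 0.09, and Mrpl3 at -0.15 ± 0.06 (limma adjusted p = 0.211 to 0.308). None of these 10 values passed. The other probe sets of these genes gave atrial values of -0.13 ± 0.07 and 0.02 ± 0.14 for Mrps27 and -0.07 ± 0.06 for Mrps15. In ventricle the third probe set of Mrps2 differed less, with means of 6.57 in sham and 6.48 after shunt, and its arrays overlapped. The other probe set of Mrps14 went the opposite way in atrium, with 9.03, 9.06 and 9.11 in sham and 9.16, 9.14 and 9.15 after shunt, a difference of 0.08 ± 0.06 with no overlap between arrays, and gave 0.03 ± 0.06 in ventricle, where its arrays overlapped.

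In the difference between chambers, the smallest p-values belonged to Mrps27 (-0.38 ± 0.14 and -0.19 ± 0.09 by 2 of its 3 probe sets) and Mrps31 (-0.20 ± 0.10). The others were Mrpl51 (-0.32 ± 0.16 by 1 of its 4 probe sets) and Mrps9 (-0.16 ± 0.08 by 1 of its 2 probe sets). All had a limma adjusted p of at least 0.648. The first of these Mrps27 probe sets read 6.02, 5.91 and 5.81 in sham atrium and 5.58, 5.87 and 5.43 after shunt, and 5.91, 5.94 and 5.94 in sham ventricle and 5.97, 6.05 and 6.07 after shunt. Its atrial arrays overlapped and its ventricular arrays did not. For the third Mrps27 probe set the difference between chambers had the opposite sign. Its means were 4.60 in sham atrium and 4.62 after shunt, and 4.96 in sham ventricle and 4.89 after shunt. The other Mrps9 probe set had means of 7.99 and 7.93 in atrium and 8.68 and 8.66 in ventricle, sham first.

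Averaged over both chambers, the shunt effect was called for 1 member, beside 4.80% of all probe sets called in either direction. This was Mrps14, a small-subunit protein with a bacterial homologue. Its probe set read 8.11, 8.36 and 8.24 in sham atrium and 8.02, 7.97 and 8.08 after shunt. In ventricle it read 8.57, 8.48 and 8.53 in sham and 8.36, 8.31 and 8.32 after shunt. Shunt arrays lay below sham arrays in both chambers without overlap, and the mean effect was -0.21 ± 0.05 (limma adjusted p = 0.0398). The other probe set of Mrps14 gave 0.06 ± 0.04 (limma adjusted p = 0.435), the opposite sign. The call held without sham atrial array 1 or shunt atrial array 3 and ended without any 1 of the other 10 arrays (limma adjusted p = 0.0586 to 0.092).

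Mrpl32, a zinc-binding large-subunit protein matured by the m-AAA protease, had the next smallest p. It read 8.25, 8.18 and 8.13 in sham atrium and 8.34, 8.23 and 8.39 after shunt, and 8.33, 8.21 and 8.20 in sham ventricle and 8.47, 8.38 and 8.52 after shunt. Ventricular arrays did not overlap and atrial arrays did, and the mean effect of 0.17 ± 0.05 did not pass (limma adjusted p = 0.0716). It passed with the 60th percentile filter (adjusted p = 0.0446) and with the trended and robust prior (limma adjusted p = 0.0378). Mrps2 (-0.20 ± 0.06), Mrpl3 (-0.13 ± 0.04) and the Mrps15 probe set with a mean of 4.12 (-0.26 ± 0.09) did not pass either, though Mrpl3 passed with that prior (limma adjusted p = 0.0337). Mean effects of the other members always described were -0.10 ± 0.06 for Mrpl44, -0.06 ± 0.05 for Mrps22 and 0.01 ± 0.04 for Mrpl12. At an unadjusted p under 0.05 there were 14 members, beside 22.4% of all probe sets.

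Other mitochondrial lists held few calls after shunt, as did all probe sets tested. In atrium 1 of 15 regulators was lower, Perm1 at -0.55 ± 0.08 (limma adjusted p = 0.00858), and no gene of the 7 other mitochondrial lists was called in either chamber. Over all probe sets 1.30% were called in atrium and 0.107% in ventricle, so few calls were to be had in lists of this size. The same fit called Myh7 higher in shunt atrium by 1.63 ± 0.18 (limma adjusted p = 0.00228), so the test made calls in this comparison. Perm1 gave -0.09 ± 0.08 in ventricle, and the difference between chambers of -0.46 ± 0.11 did not pass (limma adjusted p = 0.408). Averaged over both chambers 3 genes of these lists were called, beside 4.80% of all probe sets. Perm1 fell (-0.32 ± 0.06, limma adjusted p = 0.013), and so did Iars2, 1 of the 18 tRNA charging genes (-0.21 ± 0.04, limma adjusted p = 0.0209). Cox7a1, 1 of the 72 respiratory chain subunits, rose (0.43 ± 0.11, limma adjusted p = 0.0465).

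The promoter windows were searched on both strands for 3 short motifs. These were GCGCATGC, which is 8 letters of the NRF1 recognition sequence, CCGGAAG, a core bound by ETS factors such as GABPA, and AAGATGG, a core bound by YY1; all of these factors are known regulators of nuclear genes for mitochondrial proteins. RefSeq gave a window for 59 of the 73 genes, 61 windows in all. The NRF1 letters were in 8.2% of member windows, beside 4.88% of the 9898 windows of all genes tested and 2.47% of all 33469 windows. The ETS letters were in 32.8%, beside 16.7% and 8.75%, and the YY1 letters in 24.6%, beside 8.18% and 7.01%. At least 1 of the motifs was in 32 of 61 member windows, or 52.5%, beside 26.6% and 16.8%.

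Of the 41 windows of genes lower in sham atrium 22 held a motif, and of the other 20 windows 10 did, a description with no test. The window of Mrpl47 held none of the 3. That of Mrps18b held all 3, with the NRF1 letters read on both strands at 1 place, that of Mrpl52 held the YY1 letters once and the ETS letters at 2 places, and that of Mrpl32 held the NRF1 letters at 2 places and the YY1 letters once. Matches of different motifs did not overlap. A match is a stretch of letters and no measure of binding.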

How the data were processed

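Expression was measured on 12 one-colour Affymetrix rat arrays, 3 per group, each with labelled RNA from 10 µg of total RNA of 1 pool. The deposited values were made by the authors with RMA, per the submitters' processing notes, and lie on a log2 scale as judged from their range (2.05 to 14.29); the version, and which arrays were normalized together, are not given in the sources used here. RMA equalises array distributions, so differences are relative to the other genes on an array. No depth applies, and the number of arrays limits the precision.

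Of 31099 probe sets, 57 controls were left out, and the 18625 of the rest with a mean at or above the 40th percentile (4.01) were tested. Of the 31042 that are not controls, 20826 had 1 symbol in the platform annotation, 436 had several and 9780 were unnamed here. limma 3.58.1 in R 4.3.3 (lmFit, eBayes, two-sided; 8 residual and 3.68 prior degrees of freedom) fitted 1 mean per group over all 12 arrays, with Benjamini-Hochberg adjustment over all probe sets tested and a threshold of 0.05. The procedure was tested on simulated data. A list gene was read by its tested probe set of highest mean. Named members were up to 10 per comparison by size of difference among those that passed without overlap between arrays, filled to 5 by smallest p, with Mrpl3, Mrpl44, Mrps22 and Mrpl12 always described; from each list up to 4 passing genes by smallest p, filled to 2, were candidates. Other genes in the text were named after their values were seen. The members and lists were chosen with earlier results of these data known. p-values measure the spread between these pools.

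Alternatives were other filters, a further quantile normalization, array weights, a trended and robust prior, only the groups compared, a replicate block, hexokinase and beta-actin 3′ to 5′ differences as covariates, 1 probe set per gene, and each array left out in turn. Promoter sequences came from RefSeq (GRCr8), whose table was matched by gene identifier.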

Additional observations from a re-analysis of the deposited data

How the results depend on the processing

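The count of members called lower in atrium was 57 to 65 in sham and 57 to 64 after shunt with 1 array left out. Under the 11 other settings it was 44 to 68 and 54 to 66. Beside these, 18% to 23.4% and 16.1% to 19.5% of all probe sets were called lower with 1 array left out, and 10.3% to 26.2% and 13.3% to 22.4% under the others. Counts are of 93 members, except 97 without a filter, 89 with the 60th percentile filter and 73 with 1 probe set per gene, which gave the 54. At most 2 members were called higher in atrium under any of these settings. The member median in sham was -0.34 to -0.31 with 1 array left out and moved to -0.38 under quantile normalization and -0.37 with the beta-actin covariate, which was added after seeing the data. Shunt effects within a chamber and their difference called 0 members under every setting run. Beside these, 43 to 910 of all probe sets were called in atrium, 0 to 215 in ventricle and 0 to 19 for the difference, each extreme of 18625. The count for the mean shunt effect was 1 and became 0 without a filter, with quantile normalization, with a replicate block and with 1 probe set per gene. Beside these 0 counts, 655 of 31042, 928 of 18625, 868 of 18625 and 707 of 10606 probe sets were called. It was 2 of 89 with the 60th percentile filter, beside 1012 of 12417 probe sets, and 2 of 93 with the hexokinase covariate, beside 1791 of 18625. The trended and robust prior gave 3 of 93, beside 1145 of 18625. With 1 array left out it was 0 to 1, beside 309 to 1190 of 18625. The cause was not tested.

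The labels do not say whether replicate numbers pair the arrays, and the values do not settle it. Deviations of same-numbered atrial and ventricular arrays correlated at 0.23, 0.26 and 0.07 in sham and -0.24, 0.44 and 0.45 after shunt. Same-numbered arrays of different operations correlated at -0.101 to 0.0641. The main fit treated all arrays as unpaired. With a replicate block over all groups, 62 members were called lower in atrium in sham and 62 after shunt. Beside these, 21.9% and 19.5% of all probe sets were called lower. With the block within an operation the counts were 63 and 61, beside 22.5% and 20.2%. Among the named member values, the only ones followed through all settings, signs turned only for values near 0 that were never called. With 1 array left out, Mrpl12 ran from -0.0052 to 0.0683 in atrium, from -0.0275 to 0.0231 in ventricle (0.0059 also turned) and from -0.0071 to 0.0296 in the mean effect, Mrps22 from -0.0612 to 0.0436 in ventricle (0.0161 also turned), and Mrpl44 from -0.1201 to 0.0120 in the difference between chambers (0.0059 also turned). Under other settings Mrpl12 turned to 0.0050 in ventricle (array weights) and to -0.0047 (hexokinase) and -0.0121 (beta-actin) in the mean effect, and Mrps22 in ventricle to 0.0012 (quantile) and 0.0131 (array weights).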
